A study of Sus scrofa with 8 samples.

Results

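Genes of bile acid sensing and transport were examined in the livers of 2 young Yana sows aged 180 days and 2 old Yana sows aged 8 years. Each liver gave 1 rRNA-depleted RNA-seq library, so n = 2 for each age, and no genetic change or treatment separated the groups. The paper states that the young sows had never given birth, whereas the old sows had done so over many years. Age and reproductive history therefore cannot be told apart here. All 4 sows were healthy and unrelated, and feed was withheld overnight before slaughter. Whole liver tissue was used, so every cell type of the organ contributed RNA. The set was defined by name and not by any measured value. It comprised the nuclear receptors NR1H4 (FXR) and NR0B2 (SHP), the conjugation genes BAAT and SLC27A5, the transporters SLC10A1, ABCB11, ABCB4 and ABCC2, and the receptor pair FGFR4 and KLB. Of these 10 genes, 7 were matched by symbol to an identifier among the 21607 mRNAs of the deposited table. BAAT, SLC27A5 and ABCB4 were not matched and were not analysed here, so bile acid conjugation is not covered by the values below.

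Bile acids are made from cholesterol in hepatocytes, coupled to glycine or taurine, pumped into bile, taken up again in the ileum and returned to the liver in portal blood. NR1H4 is the nuclear receptor that bile acids bind. Its best known target in liver is NR0B2, a receptor without a DNA-binding domain that acts as a corepressor and lowers transcription of CYP7A1, the rate-limiting enzyme of the classic synthesis route. A second route of repression starts in the ileum with the hormone FGF19 and acts on hepatocytes through FGFR4 and its coreceptor KLB. SLC10A1 (NTCP) takes conjugated bile acids up from blood on the sinusoidal side, and ABCB11 (BSEP) pumps them into the bile canaliculus, where ABCC2 (MRP2) exports bilirubin conjugates and other organic anions.

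Values are CPM, the reads of a gene scaled to a fixed total of reads per library. That total also holds reads outside the listed mRNAs. The listed mRNAs summed to 408898 and 428910 CPM in the young sows and to 365330 and 346173 in the old sows. The average listed mRNA was therefore lower in CPM in the old sows. Gene length does not enter them, so levels were compared between livers within a gene and never between genes. The libraries held 37555696 and 37125093 reads on listed mRNAs in the young sows and 22482241 and 24866406 in the old sows. The 7 genes were above 0 in every library, with between 52 and 6908 reads each. Log2 fold changes are old minus young on the log2(CPM + 1) scale, with 95% confidence intervals and p-values from limma, and they understate the change of genes with low values.

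Hepatocyte markers were plainly present, as all 10 matched markers of 13 were above 0 in each library and ALB ranged from 16534 to 35205 CPM. The summed hepatocyte markers were 55229 and 63521 CPM in the young sows and 39014 and 49861 in old replicates 1 and 2. ALB made up much of each sum, at 29468 and 35205 CPM in the young sows and 16534 and 23978 in the old sows. The list had no common direction, with 5 of the 10 markers higher and 5 lower on average and a median log2 fold change of -0.08. Old replicate 1 stood apart by interferon-stimulated genes. All 23 matched genes of that list were above both young livers there, at a summed 2228 CPM against 101 and 110 in the young sows and 78.6 in old replicate 2. Summed macrophage markers were 246 and 278 CPM in the young livers against 395 and 387 in the old sows, and all 7 were higher on average. Endothelial markers summed to 83.0 and 84.8 against 220 and 156. The largest share of each endothelial sum came from FCN2, whose CPM values were 36.8 and 42.7 (young) against 148 and 107 (old). The endothelial list itself was split, with 4 of its 7 markers higher and 3 lower on average. The part of these markers in the values below was not tested, and the other lists are given with the limits of the data. In tissue RNA, fewer cells of a type and less RNA per cell cannot be told apart.

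The receptor side of the set split in opposite directions. NR0B2, the corepressor, was the gene with the greatest difference, 7.32-fold higher by its mean in old livers, while NR1H4, its activator, was 1.40-fold lower. FGFR4 did not differ beyond the spread within an age, and KLB was low and variable.

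NR0B2 (ENSSSCG00000003565) was at 9.92 CPM in young replicate 1 and 4.56 in young replicate 2. In old replicates 1 and 2 it was at 68.7 and 37.3 CPM. Both old livers lay above both young livers, and the gap between the ages exceeded the 2.17-fold gap between the young livers and the 1.84-fold gap between the old livers. The young libraries held 911 and 395 reads of the gene and the old libraries 4227 and 2680. The mean was 7.24 ± 3.79 CPM (SD, n = 2) in young livers and 53.0 ± 22.2 (SD, n = 2) in old livers. Its log2 fold change was 2.73 (SE 0.52, interval 1.15 to 4.31), with an unadjusted p = 0.0109 and an adjusted p = 0.23 in limma over all mRNAs tested, and so it did not pass. In the exact test of edgeR on whole reads, the test the study used, its log2 fold change was 3.08 with an adjusted p = 0.00336, and with DESeq2 3.06 with an adjusted p = 3.13e-05, but edgeR's quasi-likelihood test gave an adjusted p = 0.276.

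NR1H4 (ENSSSCG00000000875) had 22.0 and 21.3 CPM in the young sows and 16.8 and 14.2 in the old sows. The young livers were nearly equal, and both old livers lay below them. The mean went from 21.6 ± 0.504 CPM (SD, n = 2) to 15.5 ± 1.78 (SD, n = 2). On the log2 scale the change was -0.46 (SE 0.14, interval -0.88 to -0.04), with an unadjusted p = 0.0397 and an adjusted p = 0.293 in limma. With TMM scaling NR1H4 was at -0.27, and in both edgeR tests at -0.28, where the exact test gave an adjusted p = 1. The median of all mRNAs was 0.12 in the edgeR fits against -0.02 in limma. Within each liver the reads of NR0B2 and NR1H4 stood at a CPM ratio of 0.451 and 0.215 in the young sows and of 4.10 and 2.62 in the old sows. This ratio does not depend on how libraries were scaled. It was chosen after the values had been seen and has no test.

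FGFR4 (ENSSSCG00000014047), the receptor for FGF19 on hepatocytes, had 13.8 and 7.28 CPM in the young sows. Its old values of 9.30 and 12.1 CPM both lay inside the young range. The log2 fold change was 0.07 (SE 0.37, interval -1.06 to 1.201), so a change of about 2-fold in either direction was within the interval. KLB (ENSSSCG00000026297), the coreceptor that FGFR4 needs to respond to FGF19, had 1.33 and 3.48 CPM in the young sows and 0.845 and 1.60 in the old sows. The ages overlapped, and the young livers themselves differed 2.62-fold. Old minus young, it came to -0.56 on the log2 scale (SE 0.43, interval -1.87 to 0.75), which went to -0.088 without young replicate 2, to -1.03 without young replicate 1 and to -0.31 without old replicate 1. KLB rested on 122 and 301 reads in the young libraries and 52 and 115 in the old ones. In the RefSeq annotation of Sscrofa11.1 the ribosomal gene RPL9 overlaps KLB and a miRNA gene overlaps FGFR4. The library kit keeps strand, but whether the counting used it is not given in the sources used here, so the values of both genes are uncertain to that extent.

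**Figure D1:**
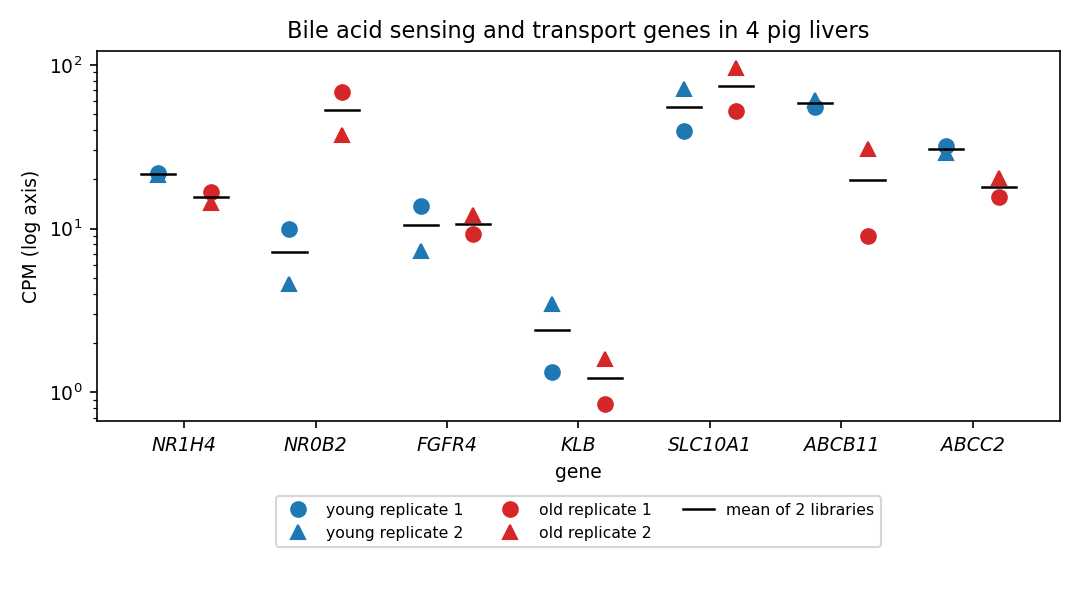
CPM on a log axis for each of the 7 genes, with 1 point per liver (blue for young, red for old, circles for replicate 1, triangles for replicate 2) and a black bar at the mean of 2 libraries. NR0B2 is at 4.56 to 9.92 CPM in young livers and 37.3 to 68.7 in old livers, ABCB11, ABCC2 and NR1H4 lie lower in both old livers, and FGFR4, KLB and SLC10A1 overlap between the ages.

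Among the transporters, both pumps of the canalicular membrane were lower in both old livers, whereas the sinusoidal uptake carrier was not. ABCB11 (ENSSSCG00000015926), the bile salt export pump, was at 55.4 CPM in young replicate 1 and 61.3 in young replicate 2. In old replicate 1 it was at 9.002 CPM and in old replicate 2 at 30.5. The young livers differed only 1.11-fold, but the old livers differed 3.39-fold from each other, with old replicate 1 the lowest. The young libraries held 5090 and 5304 reads of ABCB11 and the old libraries 554 and 2194. The mean of 58.3 ± 4.14 CPM (SD, n = 2) in young livers was 2.95-fold that of 19.8 ± 15.2 (SD, n = 2) in old livers. The log2 fold change was -1.74 (SE 0.66, interval -3.75 to 0.27), with an adjusted p = 0.361 in limma and 0.483 in the exact test of edgeR. Without old replicate 1 it was -0.91. Old replicate 1 is the liver with the high interferon-stimulated genes, and their part in the value of ABCB11 was not tested.

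ABCC2 (ENSSSCG00000010543), the canalicular exporter of organic anions, had 32.1 and 28.9 CPM in the young sows and 15.6 and 20.2 in the old sows. Both old livers lay below both young ones, and here they differed by only 1.29-fold. Mean CPM was 30.5 ± 2.27 (SD, n = 2) in young and 17.9 ± 3.24 (SD, n = 2) in old livers. The log2 fold change of ABCC2 was -0.74 (SE 0.18, interval -1.30 to -0.18), with an unadjusted p = 0.0231 and an adjusted p = 0.259 in limma. Leaving out single libraries gave -0.92 to -0.57, and TMM scaling gave -0.55.

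SLC10A1 (ENSSSCG00000002313), the sodium-dependent uptake carrier, had 39.6 and 71.3 CPM in the young sows and 52.0 and 96.2 in the old sows. The ages overlapped, and the 1.34-fold difference between the means was smaller than the difference between the livers of an age, 1.80-fold in young and 1.85-fold in old. Its log2 fold change was 0.41 (SE 0.49, interval -1.07 to 1.88), which went to -0.031 without old replicate 2 and to -0.011 without young replicate 1.

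The counts of the set are given beside the shares over all mRNAs. With 7 genes, these counts are too small to show whether the set differs from all mRNAs. Of 16898 mRNAs tested, 0 (0.0%) met both thresholds in limma, an adjusted p-value below 0.05 and a log2 fold change beyond 1 in size, and so did 0 of the 7 genes. At an unadjusted p-value under 0.05, limma gave 2654 mRNAs. That count includes 1 of the 7 genes as higher, where 6.78% of all mRNAs were higher, and 2 as lower, where 8.93% were lower. The exact test called 399 mRNAs, of which 345 were higher (2.04% of those tested) and 54 lower (0.32%) in old livers, and NR0B2 was the only one of the 7 genes among them. DESeq2 called 688 as higher (4.07%), again with NR0B2 alone of the set, and edgeR's quasi-likelihood test called 0, with 2474 at an unadjusted p-value under 0.05. The ages did not overlap for 4 of the 7 genes, with 1 higher and 3 lower in old livers. Over all mRNAs, 24.4% were higher and 25.0% lower without overlap, so this share is near the background. With TMM scaling the counts of the set were again 1 and 3, against 29.3% and 18.9% of all mRNAs.

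Each old liver was also set against both young livers. In old replicate 1, 4 of the 7 genes lay beneath both young values (ABCB11, ABCC2, NR1H4 and KLB) and NR0B2 was above both, against 35.4% below and 35.5% above over all mRNAs. In old replicate 2, ABCB11, ABCC2 and NR1H4 were below, where 35.5% of mRNAs were, and NR0B2 and SLC10A1 were above, where 34.7% were. The median log2 fold change of the 7 genes was -0.46, against -0.02 over all mRNAs tested and -0.15 over the 9798 mRNAs with a mean of at least 1 CPM. This median is the value of NR1H4 itself, and the set was split, with 3 genes higher and 4 lower on average. With TMM scaling the median of the 7 genes was -0.27, and every one of them kept its direction under TMM scaling and under the size factors of DESeq2.

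Hepatocyte markers were also taken as the reference within each liver. This shifts the difference between the ages by the same amount for every gene, so only the separation of the livers can change. The log2(CPM + 1) of NR0B2 minus the median of the hepatocyte markers was -7.65 and -9.04 in the young sows and -4.72 and -6.39 in the old sows, a mean difference of 2.79 on the log2 scale. For ABCB11 the values were -5.28 and -5.56 in the young sows and -7.52 and -6.67 in the old sows, a mean difference of -1.67. Both genes kept their ages apart on this scale. NR1H4 did not, with -6.57 and -7.04 against -6.69 and -7.72, and the median of the hepatocyte markers was itself 10.84 in old replicate 1 and 11.65 in old replicate 2 against 11.09 and 11.52 in the young livers. ABCC2 was at -6.05 and -6.62 against -6.78 and -7.24. SLC10A1 was at -5.75 and -5.34 in young livers and at -5.11 and -5.04 in old livers, where both old values lay above the young ones.

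**Figure D2:**
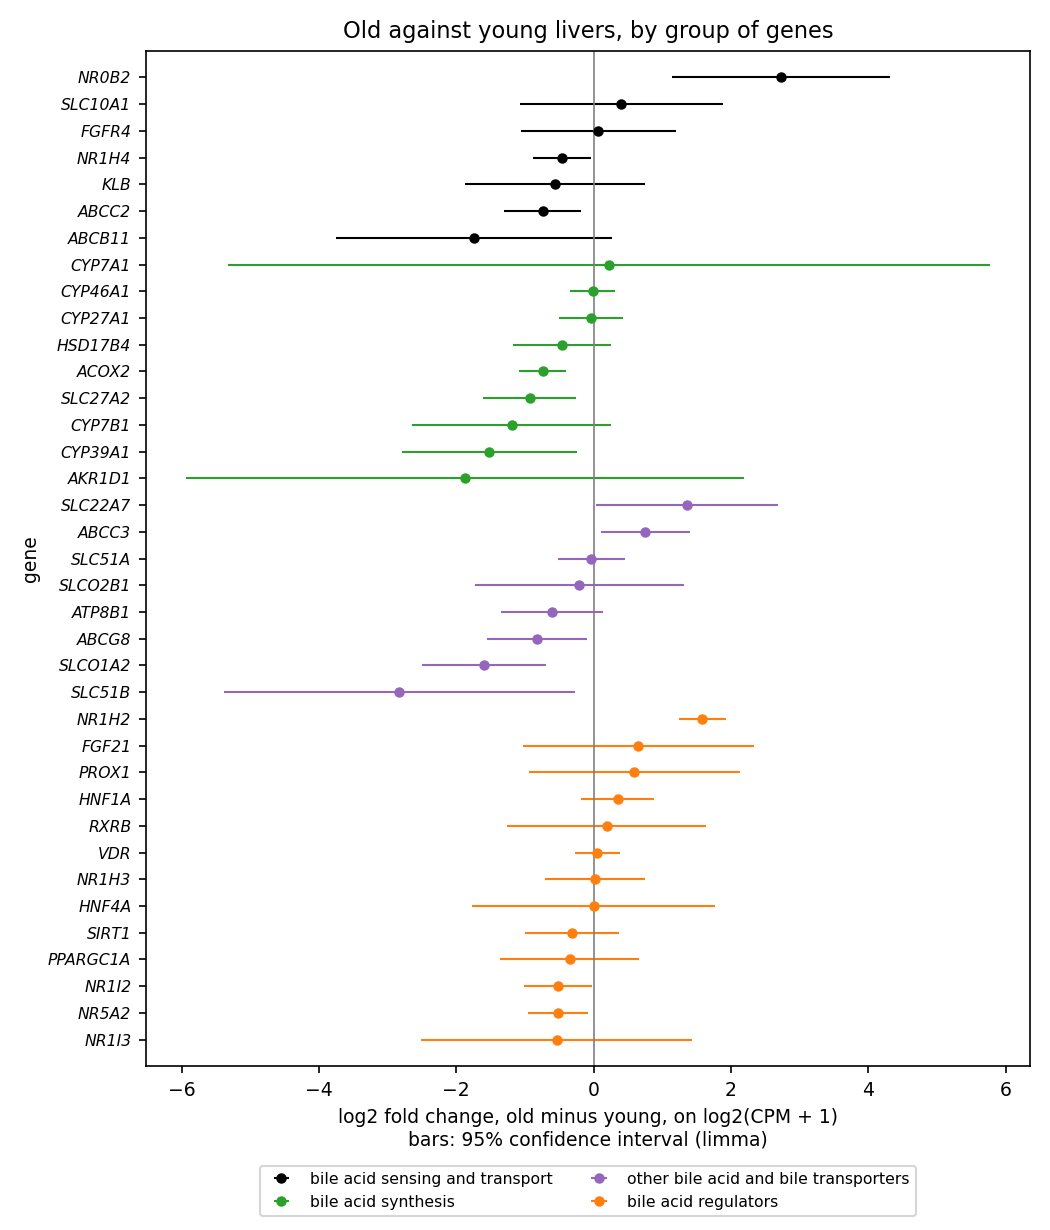
Log2 fold change (old minus young, on log2(CPM + 1)) with its 95% confidence interval from limma for the 7 genes of bile acid sensing and transport and for 3 lists of other bile acid genes. NR0B2 is at 2.73 and ABCB11 at -1.74, and the interval of CYP7A1 runs from -5.33 to 5.77.

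No enzyme of bile acid synthesis passed a test. Of a list of 14 genes, 9 had an identifier, 8 were lower on average on the log2 scale and CYP7A1 was higher. The 8 include CYP46A1, which had only 1 and 3 reads in young and 0 and 2 in old livers. None was called by limma, either edgeR test or DESeq2. At an unadjusted p-value under 0.05 in limma, 3 were lower and 0 higher, against 8.93% and 6.78% of all mRNAs. CYP8B1, which sets the proportion of cholic acid, was among the unmatched genes. The ages did not overlap for 6 of the 9, all lower in the old sows, against 25.0% of all mRNAs. Their median was -0.74 on the log2 scale, but -0.19 without old replicate 1.

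CYP7A1, the rate-limiting enzyme that NR0B2 is known to repress, had 2.72 and 12.0 CPM in the young sows. Old replicate 1 had 0.829 CPM and old replicate 2 had 34.7. The old livers thus held the lowest and the highest value of all 4, 41.9-fold apart. NR0B2 was at 68.7 CPM in old replicate 1 and at 37.3 in old replicate 2, above both young livers in each. A link between NR0B2 and CYP7A1 was not tested. The log2 fold change of CYP7A1 was 0.22 (SE 1.82, interval -5.33 to 5.77), too wide to give a direction. CYP27A1, the mitochondrial enzyme of the alternative route, was steady at 2.97 and 2.30 CPM in young livers and 2.63 and 2.42 in old livers. Its log2 fold change was -0.04 (SE 0.15, interval -0.50 to 0.43).

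AKR1D1, which reduces the steroid ring of bile acid precursors, was the gene of this list with the lowest log2 fold change, -1.88 (SE 1.33, adjusted p = 0.587, limma). Young livers held 246 and 277 CPM of it, against 21.0 in old replicate 1 and 230 in old replicate 2. The difference therefore lay in old replicate 1, and without it the log2 fold change was -0.18. ACOX2, the peroxisomal oxidase that shortens the side chain, had nearly equal values within each age. It was at 95.5 and 91.7 CPM in the young sows and 56.8 and 54.4 in the old sows, a log2 fold change of -0.74 (SE 0.11, adjusted p = 0.213, limma). SLC27A2, a very long chain acyl-CoA synthetase that also activates bile acid precursors, had 29.5 and 38.4 CPM in young livers and 15.1 and 19.4 in old livers. ACOX2 and SLC27A2 were singled out after their values had been seen.

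Among 15 further transporters of bile acids and bile lipids, 8 had an identifier, of which 6 were lower and 2 higher by their means in the old sows. None was called by limma or either edgeR test, whereas DESeq2 called SLC22A7 as higher and SLCO1A2 as lower, against 4.07% and 1.2% of all mRNAs. At an unadjusted p-value under 0.05 in limma, 3 were lower and 2 higher, against 8.93% and 6.78% of all mRNAs. The ages did not overlap for 4 lower and 2 higher genes, where 25.0% and 24.4% of all mRNAs were lower and higher in this way. Their log2 fold changes had a median of -0.41, or -0.24 without young replicate 1. SLC51B, a subunit of the basolateral bile acid exporter OSTα-OSTβ and a known target of NR1H4, had 22.7 and 34.1 CPM in the young sows. In old replicates 1 and 2 it had 0.991 and 7.25 CPM. Its log2 fold change was -2.83 (SE 0.84, adjusted p = 0.29, limma), and -1.81 without old replicate 1. Its partner subunit SLC51A was at most at 0.229 CPM in any liver. SLC22A7, an organic anion carrier of the sinusoidal membrane, had 22.9 and 21.3 CPM in young livers and 84.7 and 39.8 in old livers, a log2 fold change of 1.36 (SE 0.43, adjusted p = 0.31, limma). DESeq2 gave 1.67 for SLC22A7 with an adjusted p = 0.0309, and the exact test of edgeR an adjusted p = 0.195.

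Another 3 transporters of this list were singled out after their values had been seen. SLCO1A2, a sodium-independent uptake carrier, was at 9.29 and 12.0 CPM in young livers and at 2.08 and 3.73 in old livers. ABCG8, a subunit of the canalicular sterol exporter, was at 16.7 and 11.6 against 8.11 and 6.78 CPM. ABCC3, a basolateral exporter that carries bile acids back to blood, was at 0.860 and 1.005 CPM in young livers and at 1.79 and 2.81 in old livers. None of these passed the adjusted threshold in limma, with adjusted p-values of 0.228, 0.285 and 0.279. SLCO1A2 passed in DESeq2, with a log2 fold change of -1.70 and an adjusted p = 0.0377, but not in the exact test of edgeR (adjusted p = 0.23).

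The regulators around NR1H4 showed no common direction. Of 17 genes, 14 had an identifier and 13 were tested, with 7 higher and 6 lower on average. Among those counted as higher, VDR had 2 and 0 reads in young and 2 and 5 in old livers. FGF21 had 15 and 0 reads in young and 106 and 4 in old livers. NR1H3 (higher, 0.02) and HNF4A (lower, -0.0004) had almost no log2 fold change. None was called by limma or either edgeR test, and DESeq2 called NR1H2 alone, as higher, where it called 4.07% of all mRNAs as higher. At an unadjusted p-value under 0.05 in limma, 1 was higher and 2 were lower, against 6.78% and 8.93% of all mRNAs. Their log2 fold changes had a median of 0.02, and between 0.17 and 0.19 with the alternative scalings. FGF19 was at 0 reads in all 4 livers, which allows up to 3 reads per library by counting error alone. NR1H2, the oxysterol receptor LXR-β, had the highest log2 fold change of this list, 1.58, at 4.30 and 4.56 CPM in young sows and 15.6 and 14.9 in old sows, with an adjusted p = 0.213 in limma. For NR1H2 the exact test of edgeR gave an adjusted p = 0.0825 and its quasi-likelihood test 0.276, and DESeq2 gave a log2 fold change of 1.96 with an adjusted p = 1.31e-05. NR5A2 (LRH-1), which drives CYP7A1 and is the factor that NR0B2 silences there, had 4.20 and 4.47 CPM in young livers and 2.42 and 3.04 in old livers. The log2 fold change of NR5A2 was -0.52 (SE 0.14, adjusted p = 0.277, limma). HNF4A, the other activator of these genes in hepatocytes, overlapped fully, with 59.0 and 22.1 CPM in young livers and 43.0 and 30.4 in old livers. A list of 12 genes of bile acid detoxification had no matched identifier and was not analysed here.

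**Figure D3:**
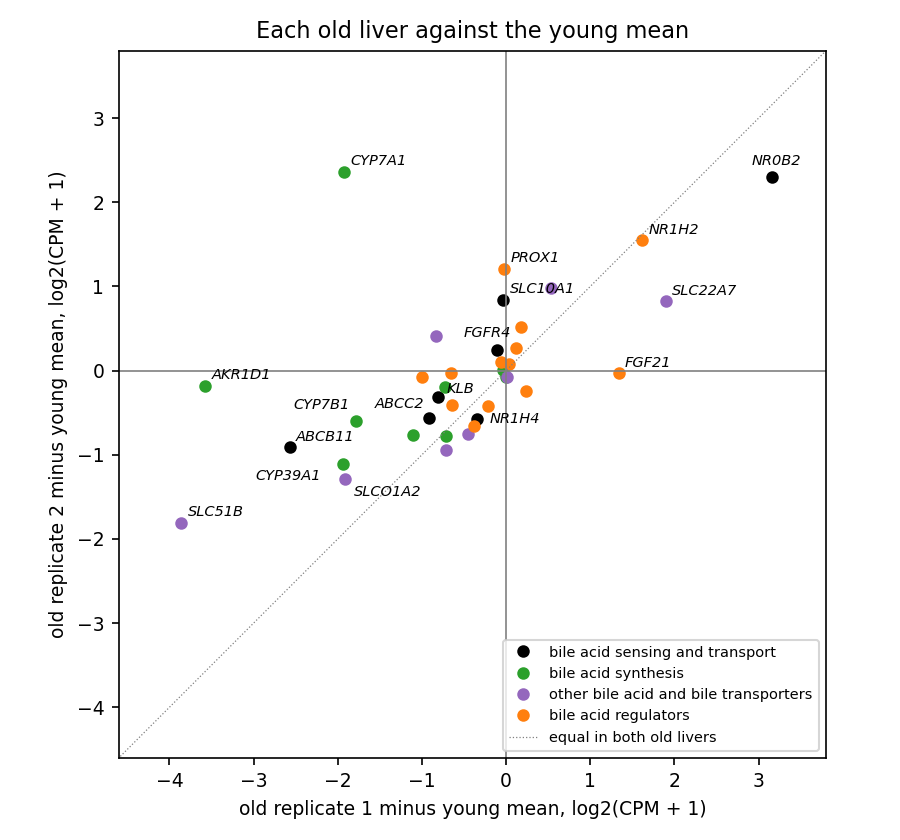
Difference of old replicate 1 (x axis) and of old replicate 2 (y axis) from the young mean, on log2(CPM + 1), for the 7 genes and the 3 lists, where the dotted line marks equal differences in both old livers. NR0B2 is at 3.16 and 2.30, ABCB11 at -2.57 and -0.91, and CYP7A1 is far from the line on opposite sides of the young mean, at -1.93 and 2.36.

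For NR0B2, ABCB11 and ABCC2 the old livers shared the direction of the difference but not its size. CYP7A1, outside the 7 genes, went in opposite directions, at -1.93 in old replicate 1 and 2.36 in old replicate 2. Old replicate 1 differed from the young mean by 3.16 for NR0B2, -2.57 for ABCB11 and -0.92 for ABCC2 on the log2(CPM + 1) scale. Old replicate 2 differed by 2.30, -0.91 and -0.57. For NR1H4 the order was turned, with -0.35 in old replicate 1 and -0.57 in old replicate 2. SLC10A1 stayed at the young mean in old replicate 1 (-0.03) and was above it in old replicate 2 (0.84).

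Taking the median of the centred log2(CPM + 1) values of the 7 genes as a profile over the 4 livers, the closest of 6093 other mRNAs with a symbol and a mean of at least 1 CPM were PTBP3, CAPRIN1 and GDAP2. Their Euclidean distances to the profile were 0.104, 0.105 and 0.113 on that scale. PTBP3, for example, had 3.18 and 3.03 CPM in the young sows and 2.02 and 2.48 in the old sows. With 4 livers many mRNAs share such a profile, and the likeness is a description only.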

How the data were processed

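Reads were mapped by the authors with TopHat2 2.0.14 on the Sscrofa10.2 genome. They assembled transcripts with StringTie 1.2.3 and deposited values that they name TPM from Salmon 0.6.0. As deposited, 100% of the values above 0 were a whole number of reads (within 0.1 reads) times 1 step per library, so the deposited values were treated as CPM, and division by the step gave the reads. Replicates, 1 sow each, were not pooled.

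Symbols were joined from a table of Ensembl identifiers (11654 of 21607 matched). limma 3.58.1 was fitted on log2(CPM + 1) of the 16898 mRNAs that had reads in 2 or more libraries, and p-values were adjusted by the Benjamini-Hochberg method over all of them. edgeR 4.0.16 (exact and quasi-likelihood tests) and DESeq2 1.42.0 were run on whole reads as alternatives, in R 4.3.3. The tests were run on simulated reads in which 200 genes had been changed. Every simulated gene had the same dispersion. At low dispersion each test recovered nearly all of the changed genes. At the common dispersion estimated from these libraries, limma and both edgeR tests recovered almost none, and DESeq2 recovered part of them and also called unchanged genes. Real genes differ in dispersion, so the simulation does not show what the tests recover among genes with close replicates. The genes and lists were chosen with earlier results of these data known.

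Named genes were all matched genes of the set, CYP7A1, CYP8B1 and CYP27A1, and from each of the lists of bile acid synthesis, transporters, regulators and detoxification the greatest rise and fall among genes with a mean of at least 1 CPM and no overlap between ages. The 3 mRNAs with the most similar profile were also named. Marker lists covered hepatocytes, cholangiocytes, B and plasma cells, T and NK cells, macrophages, endothelial cells, stellate cells and fibroblasts, erythroid cells, interferon-stimulated genes and acute phase proteins. lncRNAs, miRNAs and circRNAs were not used here, since circRNAs could not be tied to a gene. No coordinates are given, since gene positions of Sscrofa10.2 were not used here.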

Additional observations from a re-analysis of the deposited data

How the results depend on the processing

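The number of the 7 genes called was 0 in limma under each pseudocount, filter, scaling and variance model (range 0 to 0). It was 1 (NR0B2) with the exact test of edgeR and 1 with DESeq2. Over all mRNAs, limma called 2 after a filter at a mean of 1 CPM and 0 under the other pseudocounts, filters, scalings and variance models. The 0 among the 7 genes therefore says little about these genes. The exact test called 399 mRNAs and DESeq2 891. The median log2 fold change of the 7 genes was -0.27 with TMM scaling, -0.28 with the exact test and -0.28 with the quasi-likelihood test. In each of these it is the value of NR1H4. It lay between -0.44 and -0.31 with 1 library left out. With 1 library left out, FGFR4 lay between -0.35 and 0.49 and SLC10A1 between -0.031 and 0.84. The sign of FGFR4 turned without young replicate 2 (-0.35) and without old replicate 2 (-0.11), and that of SLC10A1 without young replicate 1 (-0.011) and without old replicate 2 (-0.031). The cause was not tested. Of 98 values of single genes under alternatives, 4 turned sign, 2 (NR0B2) passed the threshold only there and 92 kept direction and call. With 1 library left out, the medians lay between -1.10 and -0.19 for synthesis, -0.58 and -0.24 for transporters and -0.24 and 0.14 for regulators, the last being 0.19 with TMM scaling and 0.17 with size factors of DESeq2. In a check chosen after seeing the data, between 1 and 2 genes were higher and between 3 and 4 lower without overlap when a library was left out, where between 34.5% and 40.7% of all mRNAs were higher and between 35.4% and 41.9% lower. Replicate numbers are shared between the ages, and the labels state no pairing. The correlation of same-numbered deviations was 0.0902, which with 2 livers per age cannot show whether same-numbered livers shared an origin. With a replicate block 0 of the 7 genes and 0 mRNAs were called. No animal was measured more than once, and 2 sows per age limit every comparison.

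The other marker lists, as summed CPM in young replicates 1 and 2 and old replicates 1 and 2, were 20.2, 24.3, 17.5 and 30.6 for cholangiocytes, 18.7, 32.4, 31.1 and 29.0 for T and NK cells, 3.27, 5.73, 16.1 and 6.16 for B and plasma cells, 25.6, 46.1, 26.7 and 71.4 for stellate cells and fibroblasts, 622, 429, 308 and 407 for erythroid cells, and 4099, 2715, 5096 and 2049 for acute phase proteins. The ages did not overlap for B and plasma cells and for erythroid cells. Of the cholangiocyte markers SLC10A2 was at 0 in every library.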

Other observations

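Ratios between single pairs of genes were read within each liver, where library scaling cancels. They do not measure the balance of uptake and export as a whole. SLC10A1 itself overlapped between the ages, and other carriers shared no direction. The uptake carrier SLCO1A2 was lower in old livers. Of the basolateral exporters, ABCC3 was higher and SLC51B was lower. The CPM ratio of SLC10A1 to ABCB11 was 0.714 and 1.16 in the young sows and 5.78 and 3.15 in old replicates 1 and 2, a mean difference of 2.23 on the log2 scale, with both old livers above both young ones. The ratio of ABCB11 to its activator NR1H4 was 2.52 and 2.88 in the young sows and 0.537 and 2.14 in the old sows. Against the neighbouring canalicular pump ABCC2, ABCB11 stood at 1.73 and 2.12 in the young sows and 0.575 and 1.51 in the old sows. Since gene length does not enter CPM, each ratio is comparable between livers but not between pairs of genes. These ratios were chosen after the values had been seen and have no test.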
